A study of Populus trichocarpa with 28 samples.

Results

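The class III homeodomain leucine zipper (HD-ZIP III) genes of black cottonwood, Populus trichocarpa, were followed through a drought experiment. The group was defined by gene ID, and it holds 8 of the 41335 genes in the deposited count files. HB1 (Potri.004G211300) and HB2 (Potri.009G014500) are the REVOLUTA type, HB3 (Potri.011G098300) and HB4 (Potri.001G372300) form a second pair, HB5 (Potri.001G188800) and HB6 (Potri.003G050100) are the CORONA type, and HB7 (Potri.018G045100) and HB8 (Potri.006G237500) form the last pair. All 8 were found in all 28 libraries, with sense, antisense, intron and antisense intron counts. The files give IDs without coordinates, gene lengths or names, and none of the 8 IDs matched the gene table used here, so no sequence is printed and levels are compared between samples of a gene and never between genes.

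HD-ZIP III proteins are plant transcription factors that carry a homeodomain, a leucine zipper and a START lipid-binding domain. In Arabidopsis their messenger RNAs are cut by the microRNAs miR165 and miR166, which keeps the proteins to the upper side of leaves, to the centre of the shoot meristem and to the inner, xylem-forming side of vascular bundles. In Arabidopsis REVOLUTA promotes meristem formation, organ polarity and interfascicular fibres, and CORONA acts in the meristem and in vascular patterning. In Populus, REVOLUTA- and CORONA-type genes have been studied in cambium formation and secondary growth, and a class III gene described as PtrHB7 in the differentiation of cambial derivatives.

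The plants were rooted stem cuttings, grown in a greenhouse at 20 to 35 C, and every group, controls included, was first watered to field capacity. Drought plants were then kept at 40% of field capacity for 24 hours or for 25 days, and controls stayed at field capacity. After 24 hours the drought and control groups were apex and mature leaves, sequenced as total RNA depleted of ribosomal RNA. After 25 days mRNA libraries were made of root, apex and both young and mature leaves, and of root also ribosome-depleted total RNA libraries. Each of the 14 groups had 2 libraries, so the 24-hour and 25-day sets differ in duration, experiment and, for apex and leaves, library type. The labels do not say which separate plants the libraries came from, and p-values measure the spread between these libraries, which may be technical in part. They name the tissues but not the cell types within them, and no genotype or clone.

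The libraries held 20249489 to 67062224 sense counts, 251926 to 5949444 sense intron counts and 382726 to 2686433 antisense counts. No marker genes could be named, and the tissue labels were instead checked on all genes. Each of the 28 libraries correlated best with a library of its own labelled tissue, and 27 did so with a library of its own group. Levels below are sense CPM (counts scaled to a common library size), with TMM factors over all 28 libraries. Differences are log2 changes with a standard error (SE) from edgeR's quasi-likelihood test, and "called" means a Benjamini-Hochberg adjusted p under 0.05 over all genes tested. How reads shared by the closely related genes of a pair were counted is not given in the sources used here, so values within a pair carry that uncertainty.

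Under full watering, 7 of the 8 genes stood highest in root and all 8 stood higher in root than in either kind of leaf. The exception was HB3, whose level was highest in the shoot apex. In the control mRNA libraries of the 25-day set, HB7 was at 85.4 and 78.6 CPM in root, 18.2 and 19.7 CPM in apex, 14.8 and 17.1 CPM in young leaves and 8.06 and 7.71 CPM in mature leaves. These 4 tissues did not overlap, and the 10.4-fold distance between the HB7 means of root and mature leaves was the widest of the 8 genes. HB8, its partner, was at 78.7 and 74.7 CPM in root, 42.8 and 42.5 CPM in apex, 28.5 and 29.3 CPM in young leaves and 16.3 and 10.9 CPM in mature leaves, a 5.64-fold distance in the same order.

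HB3 was at 114 and 109 CPM in root and at 139 and 152 CPM in apex, and was lower in young leaves with 54.8 and 58.6 CPM and in mature leaves with 44.1 and 37.6 CPM. HB4 was at 190.7 and 192 CPM in root, 77.0 and 98.3 CPM in apex, 83.1 and 102 CPM in young leaves and 31.8 and 36.0 CPM in mature leaves. Thus the apex stood above root for HB3 and below it for HB4, and the apex and young leaf libraries of HB4 overlapped.

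The CORONA-type pair kept the order root, apex, young leaves and mature leaves without overlap. HB5 averaged 109 ± 4.72, 67.5 ± 9.0, 42.5 ± 3.55 and 28.7 ± 0.672 CPM in those tissues (SD, n = 2 each). HB6 averaged 77.8 ± 4.99, 56.9 ± 0.355, 36.1 ± 2.69 and 17.7 ± 2.83 CPM (SD, n = 2 each). Among the REVOLUTA type, HB2 averaged 94.5 ± 3.75, 62.6 ± 3.16, 41.6 ± 1.77 and 32.5 ± 3.29 CPM in root, apex, young leaves and mature leaves (SD, n = 2 each). HB1 varied least, at 31.6 ± 0.520, 20.9 ± 2.08, 17.0 ± 1.5 and 18.1 ± 1.34 CPM in the same tissues (SD, n = 2 each), a 1.86-fold range in which the leaf libraries overlapped. Whether a tissue has more of the cells that express these genes, or more RNA per cell, cannot be told apart in such bulk samples.

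**Figure D1:**
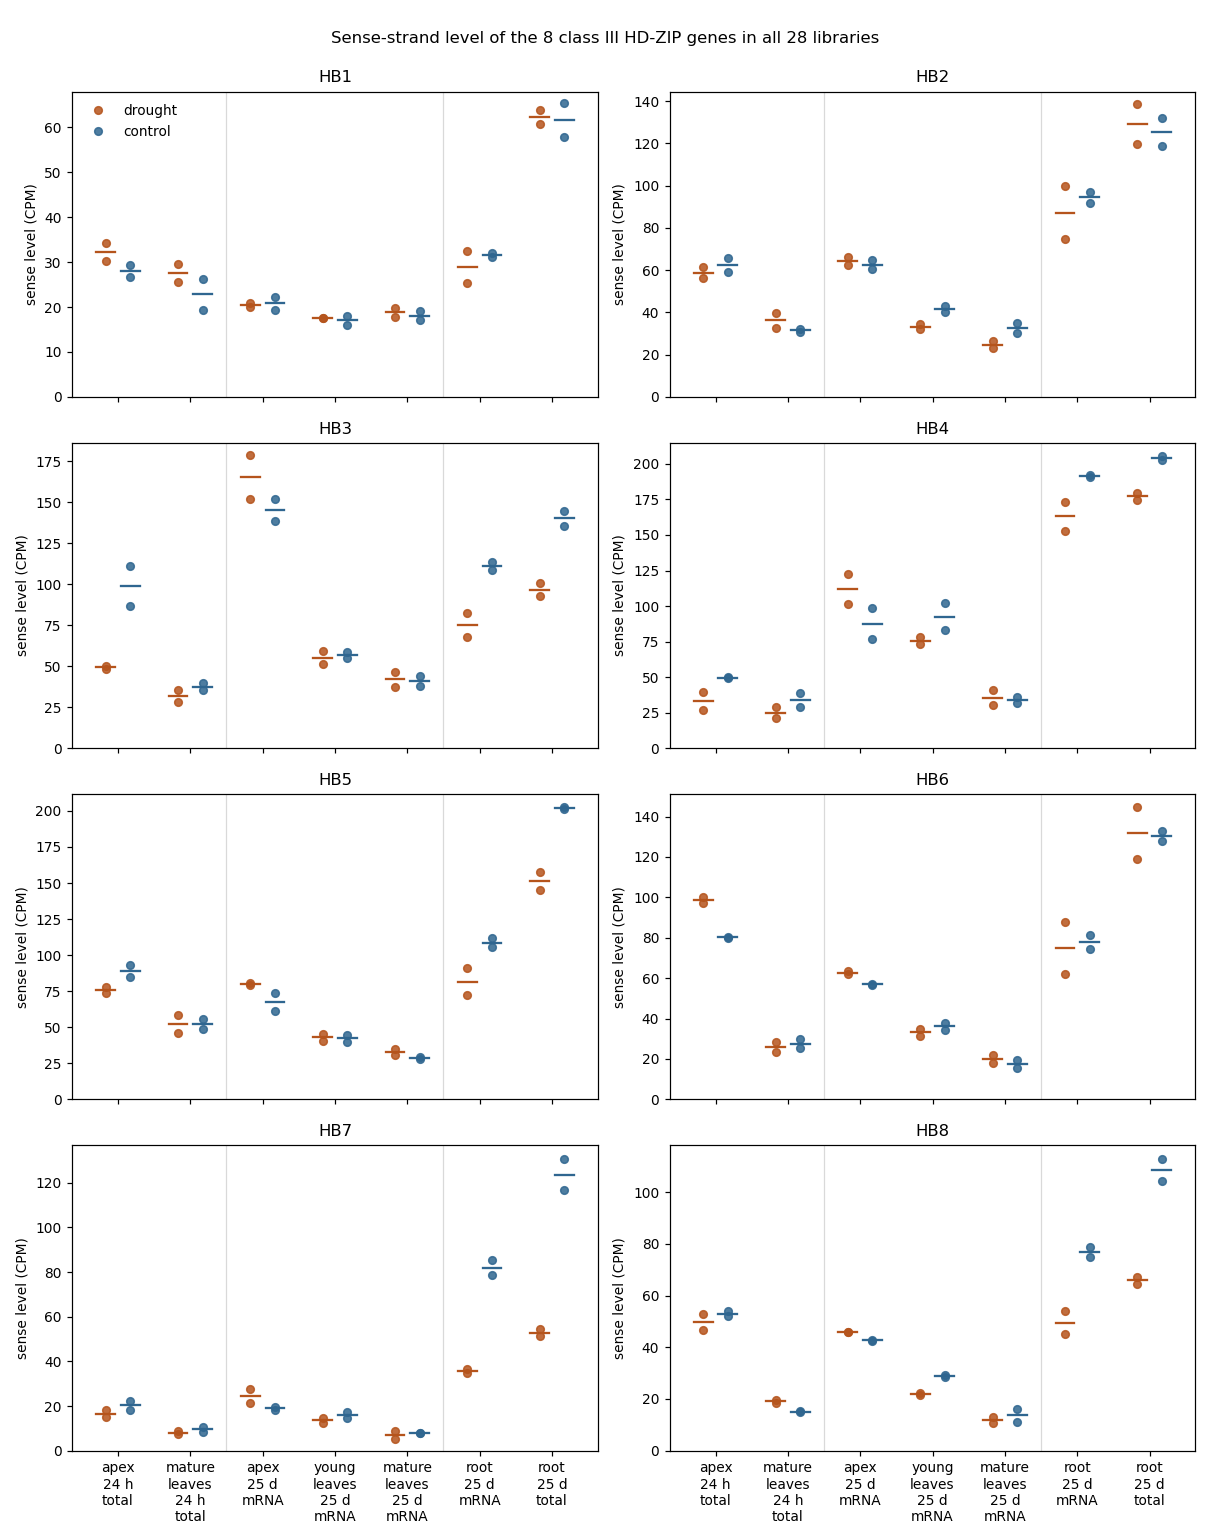
Sense level in CPM of each gene in each library (points) with group means (bars), for 7 pairs of drought (left, brown) and control (right, blue) groups. HB7 drops in drought root to 34.8 and 36.4 CPM in mRNA, against 85.4 and 78.6 CPM in controls, and HB3 is the gene whose highest level lies in the apex.

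The tests over all genes placed these differences against the whole transcriptome. Of the 8 genes, 8 were called higher in root than in mature leaves, where 32.1% of all genes were, and 8 were called higher in root than in young leaves, where 30.0% were. Root against apex gave 7 genes called higher, with 28.1% of all genes, and here HB7 had the largest log2 difference of 2.11 (SE 0.20, adjusted p = 1.03e-06). HB3 differed from apex by -0.39 in root (SE 0.16, adjusted p = 0.0514), on the other side of zero from the 7 others. DESeq2 called HB3 lower in root than in apex (adjusted p = 0.0425). When the control libraries numbered 63 of every tissue in the set were left out, HB2 (0.62) and HB6 (0.63) lost their calls. With those numbered 70 left out, HB6 did (0.38).

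Against young leaves, 5 genes were called higher in apex (HB2, HB3, HB5, HB6 and HB8; 20.4% of all genes), led by HB3 with 1.36 (SE 0.17, adjusted p = 5.01e-05). When the control libraries numbered 63 of every tissue, or those numbered 70, were left out, HB2, HB5, HB6 and HB8 lost their calls. HB1 and HB7 were also higher in apex in every library but were not called. Against mature leaves, 7 genes were called higher in apex (28.9% of all genes), again led by HB3 with 1.83 (SE 0.17), and HB1 was the gene not called, at 0.20 (SE 0.15, adjusted p = 0.268). Between the leaves, 5 genes, HB4 to HB8, were called higher in young leaves than in mature leaves (15.2% of all genes), led by HB4 with 1.44 (SE 0.19, adjusted p = 0.000111). When the control libraries numbered 63 of every tissue were left out, HB5 and HB7 lost their calls. With those numbered 70 left out, HB5, HB7 and HB8 did. HB2 and HB3 were also higher in both young leaf libraries than in either mature leaf library without a call, and DESeq2 did call HB3 (adjusted p = 0.0292).

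The total RNA controls of the 24-hour set had higher means in apex than in mature leaves for all 8 genes, and 6 were called (27.3% of all genes). HB8 differed most, at 54.0 and 52.0 CPM in apex and 14.9 and 15.3 CPM in mature leaves (log2 difference 1.88, SE 0.14, adjusted p = 1.26e-05). HB6 differed by 1.61 (SE 0.15) and HB3 by 1.47 (SE 0.17). HB1 (0.36, SE 0.18) and HB4 (0.62, SE 0.23, adjusted p = 0.0510) were not called. When the control libraries numbered 19 of both tissues were left out, neither were HB5 (0.80) and HB7 (0.82). HB4 was called with no filter (adjusted p = 0.0363), and under plain totals HB4 (1.17, adjusted p = 0.00115) and HB1 (0.91, adjusted p = 0.00133) both were.

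After 25 days of drought, HB7, HB8 and HB3 were lower in root in both kinds of library, and HB5 was lower in the total RNA libraries. HB7 was at 34.8 and 36.4 CPM in drought root mRNA, against 85.4 and 78.6 CPM in control root mRNA. In root total RNA it was at 51.3 and 54.5 CPM in drought plants, against 130.5 and 117 CPM in control plants. No drought library reached a control library, and the level fell to 0.418 of control in mRNA (log2 change -1.26, SE 0.11, adjusted p = 0.00686) and to 0.406 in total RNA (-1.30, SE 0.11, adjusted p = 0.00639). HB7 remained called when any single root library was left out.

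HB8 was at 45.2 and 54.0 CPM in drought root mRNA and 78.7 and 74.7 CPM in control root mRNA, and at 64.5 and 67.1 CPM in drought total RNA and 113 and 104 CPM in control total RNA. Again the drought and control libraries did not overlap (-0.69, SE 0.13, adjusted p = 0.0216 in mRNA, and -0.80, SE 0.10, adjusted p = 0.0106 in total RNA). HB3 was at 67.8 and 82.5 CPM in drought root mRNA and 114 and 109 CPM in control root mRNA, and at 92.6 and 101 CPM in drought total RNA and 145 and 136 CPM in control total RNA. Its change was close to equal in both (-0.62, SE 0.14, adjusted p = 0.0304 in mRNA, and -0.61, SE 0.10, adjusted p = 0.0184 in total RNA).

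HB5, of the CORONA type, was at 145 and 157 CPM in drought root total RNA and 203 and 201 CPM in control root total RNA (-0.50, SE 0.10, adjusted p = 0.0288). In root mRNA it was at 72.2 and 90.9 CPM in drought plants and 105 and 112 CPM in control plants, also without overlap (-0.47, SE 0.15, adjusted p = 0.0734), and it was called there without drought library 68 (adjusted p = 0.0368). HB4 had log2 changes of -0.29 (SE 0.13) in mRNA and -0.28 (SE 0.10) in total RNA, and neither passed the threshold. Its libraries did not overlap in either. Plain totals, which moved the median of all genes by -0.17 and -0.14, called HB4 lower in both. Its changes were then -0.46 in mRNA (adjusted p = 0.0476) and -0.42 in total RNA (adjusted p = 0.0399).

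The remaining 3 genes, HB1, HB2 and HB6, were not called in root, and their drought and control libraries overlapped in both library types. Their fitted log2 changes were -0.19, -0.17 and -0.11 in mRNA and -0.06, -0.04 and -0.06 in total RNA, and none was called. The signs in total RNA carry no direction, since the mean levels scaled over all 28 libraries lay the other way, at 62.3 CPM in drought and 61.7 CPM in control for HB1, 129 and 125 CPM for HB2, and 132 and 130.4 CPM for HB6. The normal 95% interval of the total RNA change of HB2 ran from -0.27 to 0.20, and that of HB6 from -0.31 to 0.19. Such intervals take no account of how few libraries gave the SE and are too narrow.

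Against the background, 3 of 8 genes called in root mRNA compares with 27.4% of all genes, and 4 of 8 in total RNA with 26.4%. All of these calls were lower in drought. The median log2 change of the 8 genes was -0.38 in mRNA, where the median of all genes was -0.03, and -0.39 in total RNA, where it was -0.03. Libraries with the same number in the titles carried similar deviations in the mRNA and total RNA sets of root, so the comparisons of these sets are not independent. Without control library 63 or 70, only HB7 was called in either set (HB8 then had adjusted p = 0.137 and 0.129 in mRNA and 0.0631 and 0.0584 in total RNA), and HB5 in total RNA also lost its call without drought library 64 (0.0623) or 68 (0.0547). HB3 had adjusted p = 0.174 and 0.169 in mRNA and 0.117 and 0.104 in total RNA without control libraries 63 and 70.

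**Figure D2:**
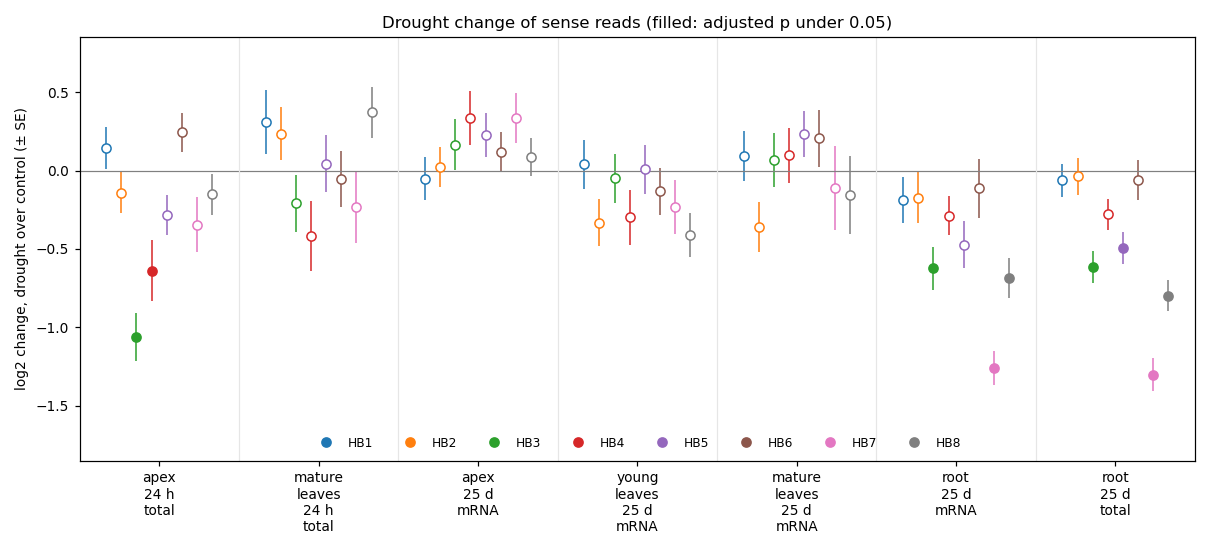
Log2 change of sense reads, drought over control, with SE, for each gene in each of the 7 comparisons (filled points were called). The filled points are HB3 and HB4 in the 24-hour apex, HB3, HB7 and HB8 in root mRNA and these with HB5 in root total RNA, all below 0.

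In the apex after 24 hours, the gene that fell most was HB3. It was at 50.1 and 48.5 CPM in drought apex and 87.0 and 110.9 CPM in control apex, a level of 0.479 of control (log2 change -1.06, SE 0.15, adjusted p = 0.00138). Its partner HB4 was at 39.4 and 27.1 CPM in drought apex and 49.9 and 49.5 CPM in control apex (-0.64, SE 0.19, adjusted p = 0.0270). Neither pair of groups overlapped, and the drought libraries of HB4 were further apart than its controls. HB3 kept its call without any single library. HB4 had adjusted p = 0.0595 without control library 19 and 0.0504 without control library 49.

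The CORONA-type pair separated in this tissue without passing the threshold. HB6 was at 97.4 and 100.2 CPM in drought apex and 80.4 and 79.8 CPM in control apex (0.24, SE 0.12, adjusted p = 0.130), and HB5 was at 73.8 and 78.1 CPM in drought apex and 85.1 and 93.0 CPM in control apex (-0.29, SE 0.13, adjusted p = 0.0917). HB1 had a log2 change of 0.15 (SE 0.13), HB2 of -0.14 (SE 0.13), HB7 of -0.34 (SE 0.17) and HB8 of -0.15 (SE 0.13). The transcriptome of this tissue differed widely between drought and control: 62.3% of all genes were called, so 2 of 8 is a smaller share than the background. The median log2 change was -0.22 over the 8 genes and 0.00 over all genes.

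No gene of the family was called in the 4 other comparisons. In mature leaves after 24 hours, 17.9% of all genes were called, and the largest changes were those of HB4 (-0.42, SE 0.22) and HB8 (0.37, SE 0.17). HB8 was at 19.7 and 18.5 CPM in drought leaves and 14.9 and 15.3 CPM in control leaves, without overlap (adjusted p = 0.160). In apex after 25 days, 0.164% of all genes were called, and 7 of the 8 genes had changes above zero, from 0.02 for HB2 to 0.34 for HB7. HB7 was there at 27.4 and 21.2 CPM in drought apex and 18.2 and 19.7 CPM in control apex (SE 0.16, adjusted p = 0.489). Under plain library totals the change of HB2 was -0.02, which left 6 genes above zero.

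In young leaves after 25 days, 11.4% of all genes were called. HB8 came nearest, at 21.5 and 22.1 CPM in drought leaves and 28.5 and 29.3 CPM in control leaves (-0.41, SE 0.14, adjusted p = 0.101). HB2 was at 34.6 and 32.0 CPM in drought young leaves and 40.4 and 42.9 CPM in control young leaves (-0.33, SE 0.15, adjusted p = 0.190). In mature leaves after 25 days, 5.36% of all genes were called. HB2 was at 23.1 and 26.4 CPM in these drought leaves and 34.8 and 30.1 CPM in control leaves (-0.36, SE 0.16, adjusted p = 0.231), and HB5 was at 31.0 and 34.8 CPM in drought leaves and 29.1 and 28.2 CPM in control leaves (0.23, SE 0.14). At an unadjusted p under 0.05, edgeR listed 0 genes of the family in mature leaves at 24 hours, 0 in the 25-day apex, 1 in young leaves and 0 in mature leaves at 25 days, and DESeq2 called 0 in each.

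Whether the drought responses themselves differed was tested with interaction terms. The response of HB7 in root minus that in mature leaves was -1.07 (SE 0.28, adjusted p = 0.0247), the single call of that comparison, where 13.8% of all genes were called. HB7 kept this call when the drought libraries numbered 64 of every tissue in the set were left out. It lost the call when the control libraries numbered 63 (-1.13) or 70 (-1.10) or the drought libraries numbered 68 (-0.69) were left out. HB5 (-0.61, SE 0.21, adjusted p = 0.0720) and HB3 (-0.60, SE 0.23, adjusted p = 0.102) followed without passing, though DESeq2 called both (adjusted p = 0.0174 and 0.0294), as did plain totals. After 24 hours, the response of HB3 in apex minus that in mature leaves was -0.87 (SE 0.24, adjusted p = 0.0259), again the single call, where 28.3% of all genes were called. HB3 lost this call when the libraries of both tissues numbered 19 (-0.95), 49 (-0.80) or 35 (-0.75) were left out. HB8 had -0.54 (SE 0.19, adjusted p = 0.0658) in this comparison.

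The responses of young and mature leaves after 25 days gave 0 calls in the family and 1.96% of all genes, and those of apex and mature leaves 0 calls and 4.48%. In both, edgeR listed 0 at an unadjusted p under 0.05 and DESeq2 called 0. Between the terms, the mature leaf response at 24 hours minus that at 25 days gave 0 calls in the family with edgeR and DESeq2 (1 at an unadjusted p under 0.05), and 4.26% of all genes. The apex response at 24 hours minus that at 25 days gave 4 calls, where 48.2% of all genes were called. HB3 differed by -1.23 (SE 0.23, adjusted p = 0.00176), HB4 by -0.97 (SE 0.27, adjusted p = 0.0149), HB7 by -0.68 (SE 0.25, adjusted p = 0.0441) and HB5 by -0.51 (SE 0.19, adjusted p = 0.0486). Duration, experiment and library type changed together here and cannot be told apart. DESeq2 and plain totals each called 2 of these 4, HB3 and HB4. The call of HB5 was lost on leaving out any of the 8 libraries (adjusted p from 0.0516 to 0.206) and with no filter (0.0579), and that of HB7 on leaving out any of control libraries 19, 49, 63 and 70 or drought libraries 35 and 64 (0.0556 to 0.212). HB4 lost its call without control library 63 (0.0594) or drought library 64 (0.0592).

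Read shares within each pair show how the balance of the partners moved across the libraries; no test was run on them. HB7 gave 40.3% and 43.5% of the reads of HB7 and HB8 in drought root mRNA, against 51.3% and 52.0% in control root mRNA, and 44.3% and 44.8% in drought root total RNA, against 52.8% and 53.6% in control root total RNA. The shares of drought and control root did not overlap in either library type. HB7 had its lowest mean shares in the 24-hour apex, at 22.1% and 28.2% in drought and 26.0% and 29.1% in control, where the groups overlapped. In mature leaves at 24 hours HB7 gave 27.0% and 31.7% in drought and 35.9% and 41.3% in control, without overlap, so a lower share in drought was not limited to root.

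HB5 gave 43.1% and 43.8% of the reads of HB5 and HB6 in the drought apex at 24 hours, against 53.8% and 51.4% in the control apex. The sense changes of these genes were of opposite sign there, and neither was called. Opposite signs without calls also occurred in mature leaves at 24 hours and in young leaves at 25 days. In root HB5 gave 50.9% and 53.8% in drought mRNA and 57.9% and 58.7% in control mRNA. In young leaves its share lay the other way, at 56.4% and 56.6% in drought and 53.9% and 54.2% in control. In mature leaves HB5 took its highest mean shares, between 58.9% and 67.5% over the 8 libraries of both terms.

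HB3 gave 55.4% to 69.1% of the reads of HB3 and HB4 in the 8 apex libraries, 50.6% to 58.1% in the 8 mature leaf libraries, 36.5% to 43.1% in the 4 young leaf libraries and 30.7% to 41.7% in the 8 root libraries. In root mRNA the drought shares of 30.7% and 32.3% lay below the control shares of 36.2% and 37.4%. In young leaves the drought shares of HB3, 41.0% and 43.1%, lay above the control shares of 36.5% and 39.7%. For the REVOLUTA type, HB1 gave 43.6% and 42.9% of the pair's reads in drought mature leaves at 25 days, against 35.4% and 36.3% in control mature leaves. In young leaves it gave 33.8% and 35.5% in drought and 28.3% and 29.7% in control. The shares of HB1 in the 25-day apex and root mRNA lay between 23.1% and 25.8%, with drought and control overlapping in both.

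**Figure D3:**
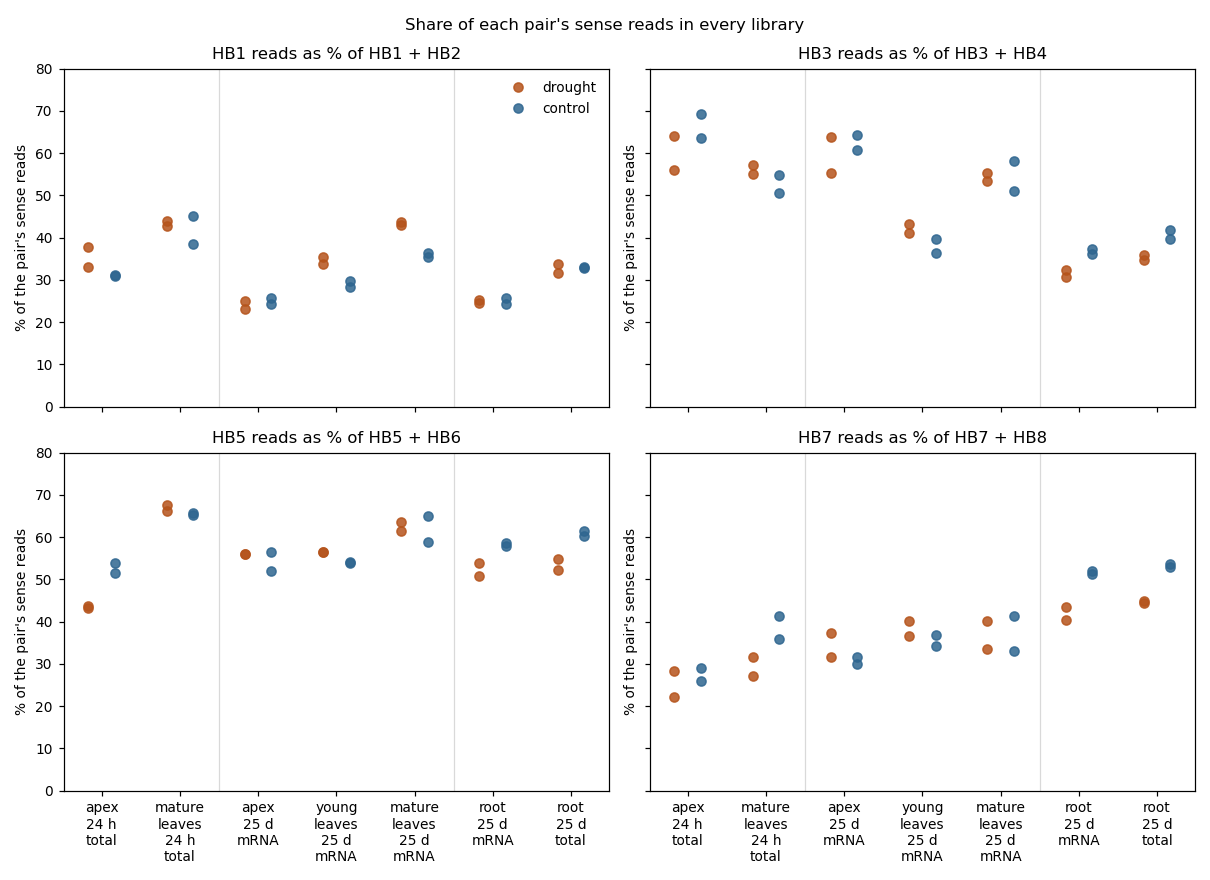
Share of the first gene in the summed sense reads of its pair, in percent, for each library, with drought left of control. HB7 stands in root at 40.3% to 44.8% in drought and 51.3% to 53.6% in control over both library types, and HB5 stands at 43.1% and 43.8% in the drought apex at 24 hours against 51.4% and 53.8% in control.

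Reads over introns can come from RNA that is not yet spliced, but also from retained or excised introns or residual DNA, and their source was not tested. They were counted on the sense strand for all 8 genes. Per 100 sense reads, the 8 genes together had 6.35 to 9.85 intron reads in the 24-hour total RNA libraries, 3.07 to 3.77 in root total RNA and 0.449 to 1.41 in the mRNA libraries. All genes together had 8.28 to 13, 6.49 to 8.31 and 1.26 to 2.44 in the same libraries. The low intron counts of the mRNA libraries meant that 8 genes passed the filter in root mRNA, 5 in the 25-day apex, 2 in young leaves and 0 in mature leaves.

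In root total RNA after 25 days, the 3 genes called on intron reads were HB7, HB8 and HB3, which were also called lower on sense reads. HB7 had 162 and 98 intron reads in drought root and 304 and 280 in control root (log2 change -1.14, SE 0.17, adjusted p = 0.000826). HB8 had 164 and 128 intron reads in drought root and 271 and 184 in control root (-0.59, SE 0.19, adjusted p = 0.0428), and HB3 had 168 and 167 in drought root and 256 and 242 in control root (-0.52, SE 0.16, adjusted p = 0.0438). Scaled to the sense reads of each library, the drought and control groups did not overlap for any of these 3. HB6 was on the other side, with 276 and 272 intron reads in drought root and 232 and 203 in control root (0.39, SE 0.16, adjusted p = 0.111). The share of all genes called was 19.4%. Only the call of HB7 was also made by DESeq2, and the calls of HB3 and HB8 were lost without control library 63 (adjusted p = 0.160 and 0.412) or drought library 64 (0.265 and 0.0546). HB3 lost its call also without control library 70 (0.165) and HB8 without drought library 68 (0.0629), while HB6 was called higher without drought library 64 (0.56, adjusted p = 0.0275). HB5, at -0.37 (SE 0.14, adjusted p = 0.0777), was called lower with own totals (-0.40, adjusted p = 0.0458).

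In root mRNA, edgeR and DESeq2 called 0 of the 8 genes on intron reads (2 at an unadjusted p under 0.05, and 15.2% of all genes called). HB7 had 25 and 36 intron reads in drought root mRNA and 66 and 48 in control root mRNA (-0.79, SE 0.33, adjusted p = 0.123), and HB3 had 18 and 16 in drought and 35 and 34 in control (-0.92, SE 0.38, adjusted p = 0.115). Without drought library 64, HB4 and HB6 were called higher, and without drought library 68, HB2 and HB7 were called lower. The 25-day apex and young leaves gave 0 calls among the 5 and 2 genes tested (0 at an unadjusted p under 0.05 in both, and 0.107% and 1.12% of all genes called), with DESeq2 calling 0.

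In the apex at 24 hours, HB6 and HB1 rose and HB3 fell on intron reads, 3 of 8 genes where 69.2% of all genes were called. HB6 had 297 and 384 intron reads in drought apex and 349 and 179 in control apex, which is 7.20 and 8.50 CPM against 5.10 and 4.08 CPM (log2 change 0.71, SE 0.22, adjusted p = 0.00300). HB1 had 195 and 192 intron reads in drought apex and 201 and 106 in control apex, or 4.73 and 4.25 CPM against 2.93 and 2.42 CPM (0.68, SE 0.24, adjusted p = 0.00829). HB3 had 129 and 177 intron reads in drought apex and 383 and 261 in control apex, or 3.13 and 3.92 CPM against 5.59 and 5.95 CPM (-0.77, SE 0.23, adjusted p = 0.00213). The median log2 change of intron reads was 0.86 over all genes and 0.09 over the 8 genes, so the rise of HB6 and HB1 was smaller than that of the median gene. With intron reads scaled by their own totals, which moves the median of all genes by -0.86, HB6 had -0.15 and HB1 had -0.17, neither called. The count then became 0 genes called higher and 6 called lower: HB3, HB4 (-1.13), HB5 (-0.92), HB7 (-1.23), HB2 (-0.64) and HB8 (-0.48). The median of all genes was then -0.001. The share of all genes called under own totals was not compared, and the 69.2% does not apply to this count. Without control library 49 none of the 3 calls was made (adjusted p = 0.178 for HB6, 0.206 for HB1 and 0.0579 for HB3), and without drought library 69 there were 5 calls.

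In mature leaves at 24 hours, HB4 had 59 and 30 intron reads in drought leaves and 70 and 95 in control leaves, or 1.71 and 0.976 CPM against 2.81 and 3.22 CPM (-1.13, SE 0.33, adjusted p = 0.0173). It was the single gene called, where 12.1% of all genes were, and DESeq2 did not call it (adjusted p = 0.138). The call was also lost without control library 49 (adjusted p = 0.0528) or drought library 69 (0.549). On sense reads HB4 had 28.8 and 20.9 CPM in these drought leaves and 29.1 and 38.7 CPM in control leaves.

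Whether intron reads changed by another factor than sense reads was tested with a readout term. In root total RNA, edgeR called 0 of 8 genes (1 at an unadjusted p under 0.05, and 1.78% of all genes called). HB7 had 4.24 and 3.05 intron reads per 100 sense reads in drought root total RNA and 3.16 and 3.38 in control root total RNA, a log2 ratio change of 0.16 (SE 0.17). The largest ratio change of the 8 genes in these total RNA libraries was that of HB6, 0.45 (SE 0.16, adjusted p = 0.167), with 3.11 and 3.20 intron reads per 100 sense reads in drought and 2.46 and 2.16 in control. Root mRNA gave 0 calls (2 at an unadjusted p under 0.05, and 0.598% of all genes called), and mature leaves at 24 hours 0 calls (1 at an unadjusted p under 0.05, and 0.300% of all genes called). Without drought library 64, HB4 and HB6 were called in root mRNA (adjusted p = 0.0126 and 0.0437), and without control library 49, HB4 was called in these leaves (0.0306).

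In the 24-hour apex, HB8 was called with a ratio change of 0.53 (SE 0.21, adjusted p = 0.0424), where 52.7% of all genes were called and the median of all genes was 0.74. HB8 had 8.60 and 9.12 intron reads per 100 sense reads in drought apex and 6.32 and 5.91 in control apex. The call was lost without control library 19 (adjusted p = 0.173), control library 49 (0.268) or drought library 69 (0.0614), and 4 genes were called without drought library 35. It was also lost with no filter (0.0579). With each readout scaled by its own totals, the ratio change of HB8 was -0.33 (adjusted p = 0.189) and all 8 genes lay below zero, so the direction rests on scaling intron reads to the sense totals. The median ratio change of the 8 genes was 0.38.

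**Figure D4:**
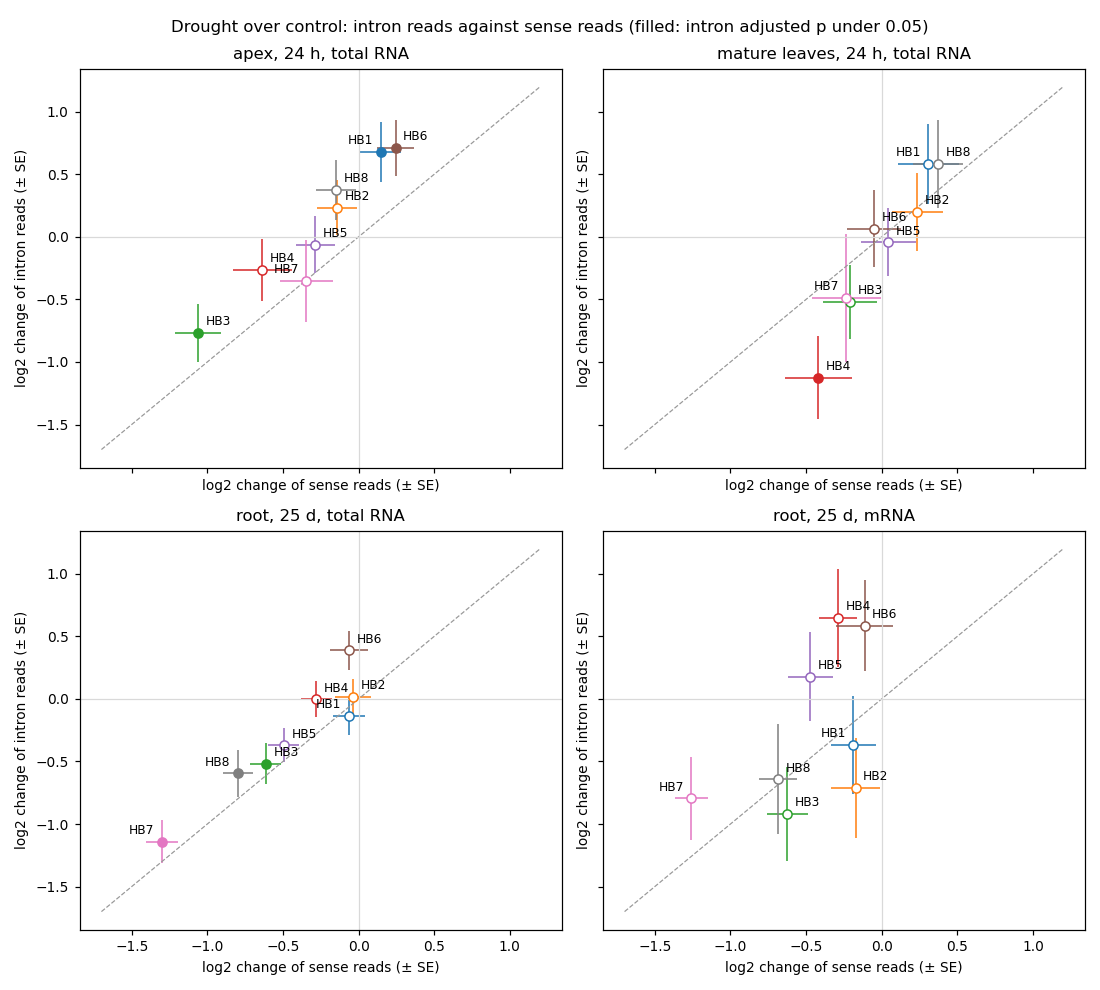
Log2 change in drought over control of intron reads (vertical) against sense reads (horizontal), with SE, for 4 comparisons; filled points were called on intron reads, and the dashed line marks equal change. In root total RNA HB7, at -1.30 on sense and -1.14 on intron reads, lies beside the line, and in the 24-hour apex 7 of the 8 genes lie above it with intron reads scaled to the sense totals as plotted, while with own totals none of the 8 would.

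Antisense reads over the family were close to absent. The 8 genes together had 143 antisense reads in all 28 libraries, beside 686696 sense reads, or 0.0208 per 100 sense reads. Over all genes the libraries had 1.38 to 8.27 antisense reads per 100 sense reads. No gene of the family had more than 6 antisense reads in any library, a count reached by HB8. HB4 had the most over all libraries, 28 reads in 15 libraries, and HB1 the fewest, 5 reads in 4 libraries. On the antisense strand of introns there were 25 reads over the family in all libraries, and HB3 and HB6 had 0. None of the 8 genes passed the filter on low counts for antisense reads in any of the 7 comparisons, so no drought change of antisense reads could be detected at this depth.

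In control root, all 8 genes had higher CPM in total RNA than in mRNA libraries without overlap, and 5 of them were called higher, where 16.7% of all genes were. HB1 was at 65.5 and 57.9 CPM in control root total RNA and 31.2 and 32.0 CPM in control root mRNA (log2 difference 0.95, SE 0.13, adjusted p = 0.00190). HB5 was at 203 and 201 CPM in control root total RNA and 105 and 112 CPM in control root mRNA (0.88, SE 0.12, adjusted p = 0.00231), and HB6 (0.73, SE 0.17), HB7 (0.58, SE 0.09) and HB8 (0.49, SE 0.10) followed. HB4 showed the smallest difference, 203 and 206 CPM in control total RNA and 190.7 and 192 CPM in control mRNA (0.08, SE 0.09), a difference of -0.03 under plain totals. With the library number as a replicate block, HB2 (0.39, adjusted p = 1.83e-06) and HB3 (0.32, adjusted p = 1.44e-05) were called too, and over all genes 19073 were called, against 9841 without it. When the mRNA and total RNA control libraries numbered 63, or those numbered 70, were left out together, HB1, HB5, HB6, HB7 and HB8 lost their calls.

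Across the 14 group means of log2(CPM + 1), the profiles of the 8 genes resembled each other to different degrees. Pearson's r over the 28 pairs of genes had a median of 0.810 and ran from 0.377 between HB1 and HB3 to 0.960 between HB6 and HB8. Within the 4 named pairs, r was 0.816 for HB1 and HB2, 0.777 for HB3 and HB4, 0.934 for HB5 and HB6 and 0.924 for HB7 and HB8. All these points share libraries, library type and depth, and r is given as a description. HB2 was nearest to the mean standardised profile of the 8 genes (r = 0.983) and HB1 farthest (r = 0.803). Each gene is itself part of that profile, which raises its r. The number of non-member genes nearer to it was 0 for HB2 and HB8, 490 for HB4, 747 for HB3 and 818 for HB1.

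Among 21629 genes with a group mean of at least 5 CPM in at least 1 group, the 3 non-member genes closest to that mean profile were Potri.016G047300 (r = 0.970), Potri.014G036500 (r = 0.967) and Potri.002G002000 (r = 0.963). Potri.014G036500 ranged over the group means from 1.91 CPM in drought mature leaves at 25 days to 63.2 CPM in control root total RNA. All 3 had their highest group mean in control root total RNA, as did HB4, HB5, HB7 and HB8.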

How the data were processed

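Strand-specific RNA-seq libraries from TruSeq kits were aligned and counted by the authors with TopHat2 2.1.0 and HTSeq 0.6.0, per the submitters' processing notes, which also name DESeq2; the genome build and the strand and overlap settings are not given in the sources used here. The deposited values are raw counts per gene or per joined introns of a gene, on the sense and the antisense strand. The intron files hold 33330 entries, of which 109 join several genes and none of these holds an HD-ZIP III gene.

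The 8 genes and the tests were chosen with earlier results of these data known. All 8 are named throughout, and the 3 genes most like them were taken by Pearson's r with their mean profile. None of the 41335 gene IDs matched the 34621 entries of the available RefSeq gene table, so no pathway or cell marker list was used.

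Counts were tested over all genes with edgeR 4.0.16 in R 4.3.3 (filterByExpr with a minimum count of 10 and a minimum total of 15, TMM, robust quasi-likelihood, Benjamini-Hochberg adjustment), drought against control in each tissue from 4 libraries. The SE is the log2 change divided by the square root of its F statistic. Intron and antisense counts were scaled to the sense library sizes. The ratio of intron to sense reads was tested as a readout by drought term with 1 term per library. Contrasts between tissues and between responses were fitted on all libraries of a set. Each fit was tested on simulated counts. Alternatives were DESeq2 1.42.0, no filter, each library left out, a shared spread, own totals, a replicate block and, added after the data were seen, plain totals. In contrasts between tissues or responses, the libraries of a set that share a number were left out together. Without numbers shared between drought and control libraries, the drought tests have no block. In root, same-numbered total RNA and mRNA libraries of the titles deviated together (r = 0.857 in control and 0.883 in drought), and the blocked result is given there as a paired analysis. No pair of libraries of the same group agreed within sampling noise, and pairs between groups were not checked for this. The number of libraries and counting error limit precision.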

Additional observations from a re-analysis of the deposited data

Results flagged for a closer look

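The 6 results below were selected because the drought response of a gene differed between tissues or terms in a test of the difference itself. The response of HB7 in root minus that in mature leaves after 25 days was -1.07. The response of HB3 in apex minus that in mature leaves after 24 hours was -0.87. The other 4 are apex responses at 24 hours minus those at 25 days: HB3 with -1.23, HB4 with -0.97, HB7 with -0.68 and HB5 with -0.51. These 4 carry the change of experiment and library type along with that of duration, and these cannot be told apart. The call of HB5 between the terms was lost on leaving out any of the 8 libraries and that of HB7 on leaving out 6 of them, and neither was made by DESeq2. HB4 between the terms lost its call without library 63 or 64. HB7 in root minus mature leaves lost its call without the libraries numbered 63, 70 or 68. HB3 in apex minus mature leaves lost its call without those numbered 19, 49 or 35.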

How the results depend on the processing

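Counts of HD-ZIP III genes called that differed by over 1.5 times follow, with the cause not tested. They are given without the share of all genes called under the same alternative. Plain totals, which moved the median of all genes by -0.17 in root mRNA, gave 5 sense calls there. They also moved that median by -0.14 in root total RNA and by -0.10 for root total RNA against mRNA and by 0.29 to 0.70 in the other tissue contrasts except young against mature leaves (0.07), with all tissue counts within 1.5 times. Own totals gave 6 intron calls in the 24-hour apex, all lower, and 2 in root mRNA, and 4 ratio calls in that apex, where no filter gave 0. DESeq2 gave 0 intron calls in mature leaves at 24 hours and 1 in root total RNA. For the difference of root and mature leaf responses, DESeq2, plain totals and the replicate block each gave 3 calls (HB3, HB5 and HB7), and for the apex responses between terms DESeq2 and plain totals each gave 2.

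With 1 library left out, sense calls ranged from 1 to 2 in the 24-hour apex, 1 to 3 in root total RNA and 1 to 4 in root mRNA. Intron calls ranged from 0 to 5 in the 24-hour apex, 0 to 1 in mature leaves at 24 hours, 1 to 2 in root total RNA and 0 to 2 in root mRNA. Ratio calls ranged from 0 to 4 in the 24-hour apex, 0 to 1 in mature leaves at 24 hours and 0 to 2 in root mRNA. In tissue contrasts, all control libraries of a set with the same number were left out together. Calls were then lost for root against apex, apex against young leaves and young against mature leaves. They were also lost for total RNA against mRNA and for apex against mature leaves at 24 hours. Response differences within a set were handled in the same way. Calls were lost there for root against mature leaves and for apex against mature leaves at 24 hours. For apex between terms each number stands for 1 library, and calls were lost there too.

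Under own totals, in the 24-hour apex, intron changes turned to -0.17 for HB1, -0.64 for HB2, -0.15 for HB6 and -0.48 for HB8, and ratio changes to -0.50 for HB2, -0.58 for HB3, -0.64 for HB5 and -0.33 for HB8. Another 103 of 1787 single values changed sign where neither fit called them. In the 24-hour and the 25-day mRNA sets, deviations of same-numbered libraries correlated from -0.02 to 0.51, so the numbers were not taken to pair tissues; the replicate block gave 5 to 8 calls in each tissue contrast, adding HB3 for root against apex and young against mature leaves and HB4 for apex against mature leaves at 24 hours. Group mean levels moved by over 1 SD in 89 of 112 values under plain totals and 18 under DESeq2 size factors. The mRNA libraries of leaves hold too few intron reads for a test of most of the 8 genes.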
